A study of Mus musculus with 4 samples.

Results

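Macrophage nuclei that held mRNA of the MHC class II genes or of the chemokine receptor gene Ccr2, and none of the resident macrophage genes tested for, were few in the mouse heart: 355 of 45483 nuclei. They came from single-nucleus RNA-seq of whole hearts of C57BL/6 mice 6 months old, with 4 genotypes and 1 library each, made from 3 pooled hearts. Rbm20_homo_corrected carries the homozygous Rbm20 mutation after gene editing correction and is called the corrected library here. Rbm20_homo carries the homozygous mutation, Rbm20_het the heterozygous one, and WT neither. RBM20 is a splicing regulator of heart muscle, and its mutation causes dilated cardiomyopathy. The mutation itself, the route of the editing and any control treatment of the other groups are not given in the sources used here. The mutation is not described as removing the transcript, so the level of Rbm20 checks no label.

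The nuclei were chosen by measured values. A nucleus needed 300 or more genes, no more than 5% of its UMIs from mitochondrial genes (a UMI is 1 counted RNA molecule), and under 2.5% of its UMIs from Ttn, Ryr2, Myh6 and Rbm20. It had to hold at least 4 UMIs of Mrc1, F13a1, Csf1r, Myo1f, Fyb and Wdfy4 together, called the macrophage genes here. Wdfy4 is also in the list of conventional dendritic cell genes used below, and its UMIs alone could meet this criterion. The B cell genes Ms4a1, Cd79a and Pax5 had to be at 0, with at most 2 UMIs of Pdgfra, Dcn, Col1a2 and Abca8a and at most 3 of Flt1, Ptprb and Cyyr1. These criteria left 1923 nuclei, the macrophage gate. Within it, members held at least 1 UMI of H2-Aa, H2-Eb1, H2-Ab1, Cd74 or Ccr2 and 0 of Cd163, Lyve1, Timd4 and Folr2. Gate nuclei with at least 1 UMI of those last 4 genes are called resident here (1125 nuclei), and those with 0 of both gene groups are called unassigned (443 nuclei). What these genes do is therefore a description and not a finding.

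MHC class II molecules are heterodimers that carry peptides from taken-up protein to the cell surface, where CD4 T cells read them. Their genes are switched on together by the transactivator CIITA, acting through factors bound at a set of promoter boxes that includes the Y box, and the invariant chain CD74 guards the groove until cathepsin S cuts it and H2-DM loads the peptide. CCR2 is the receptor for CCL2 and CCL12 that draws monocytes out of the blood. In the mouse heart, macrophages with LYVE1, TIMD4 and FOLR2 mostly renew themselves in place, whereas those with MHC class II or CCR2 are replaced to a larger extent from monocytes, and conventional dendritic cells share MHC class II and in part CCR2 with them.

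The rule genes of MHC class II lie side by side on mouse chromosome 17 (GRCm38): H2-Ab1 at chr17:34257689-34269419 on the plus strand, H2-Aa at chr17:34282744-34287823 on the minus strand and H2-Eb1 at chr17:34305867-34316674 on the plus strand. H2-DMb1, which encodes the beta chain of the peptide loader, lies close by at chr17:34153072-34160230. Ccr2 is at chr9:124101950-124113557 and Ciita at chr16:10480059-10528418. The 3 promoters below are shown because they hold the letters TGATTGG, the core of the Y box, at a similar distance from the start in genes of one function. They come from RefSeq (GRCm38.p6), run 5′ to 3′ on the gene's strand over 250 bases before and 50 bases after the start, and carry TGATTGG in capitals.
H2-Aa (chr17:34287774-34288073, minus strand): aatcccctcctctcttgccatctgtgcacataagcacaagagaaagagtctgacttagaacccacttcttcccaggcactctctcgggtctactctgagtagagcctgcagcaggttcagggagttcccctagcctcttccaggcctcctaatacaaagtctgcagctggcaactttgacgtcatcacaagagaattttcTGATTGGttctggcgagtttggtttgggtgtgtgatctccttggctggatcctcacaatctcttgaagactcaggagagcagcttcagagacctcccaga
H2-Eb1 (chr17:34305617-34305916, plus strand): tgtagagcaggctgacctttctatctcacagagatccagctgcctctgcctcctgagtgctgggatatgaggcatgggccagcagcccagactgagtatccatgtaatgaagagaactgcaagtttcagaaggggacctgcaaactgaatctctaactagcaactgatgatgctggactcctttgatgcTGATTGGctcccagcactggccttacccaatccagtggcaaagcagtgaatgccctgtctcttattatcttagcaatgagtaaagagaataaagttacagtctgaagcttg
H2-DMb1 (chr17:34152941-34153240, plus strand): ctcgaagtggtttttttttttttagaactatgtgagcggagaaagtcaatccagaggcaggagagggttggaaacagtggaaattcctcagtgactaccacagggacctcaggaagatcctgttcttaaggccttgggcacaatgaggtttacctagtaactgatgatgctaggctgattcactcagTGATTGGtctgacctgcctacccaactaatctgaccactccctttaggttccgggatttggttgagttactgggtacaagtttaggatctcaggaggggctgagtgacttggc
The motif started 50 bases before the start of H2-Aa, 61 before that of H2-Eb1 and 63 before that of H2-DMb1. TGATTGG or its reverse complement CCAATCA, sought on both strands, stood in 2568 of 32851 promoter windows of the same length (7.82%). The windows of Ctss, Ccr2, Clec9a and Dpp4 held neither. The table used has no window for H2-Ab1 and Ciita. A match is a run of letters, and no factor binding was measured.

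The label macrophage was checked with 22 genes that are expressed by macrophages and were not used to choose the nuclei. Their summed level was 8134 CPM in members of the corrected library, 10647 in Rbm20_homo, 8421 in Rbm20_het and 9116 in WT, where CPM are counts per 1000000 non-mitochondrial UMIs of the summed nuclei. Resident nuclei of the same libraries held 7643, 8259, 7715 and 8181 CPM, and fibroblast nuclei (at least 4 UMIs of Pdgfra, Dcn, Col1a2 and Abca8a) held between 779 and 886 CPM. Unassigned nuclei held 7880, 7851, 7521 and 6853 CPM in the same order. Members stood near the other classes of the gate and far above fibroblast nuclei in every library. The list includes genes of leukocytes at large, such as Ptprc, so this sum cannot tell macrophages from dendritic cells. Adgre1, which encodes the macrophage surface protein F4/80 (chr17:57358691-57483527), had a UMI in 55.1% of members of the corrected library, 57.9% in Rbm20_homo, 52.9% in Rbm20_het and 64.4% in WT. Its share in fibroblast nuclei, which should lack it, was between 4.46% and 5.80%, at median depths between 2481 and 3028 UMIs per nucleus against 1563 to 2059 UMIs in members.

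Some members carried genes of conventional dendritic cells. Clec9a, a receptor for dead-cell actin on such cells, had a UMI in 9 of 167 members of the corrected library, 9 of 95 in Rbm20_homo, 1 of 34 in Rbm20_het and 4 of 59 in WT, or between 2.94% and 9.47%, against 0.217% to 0.686% of fibroblast nuclei. Flt3, the receptor of the dendritic growth factor FLT3L, had one in 10, 13, 2 and 2 members of the same libraries, against 0.130% to 0.528% of fibroblast nuclei. Zbtb46, another gene of these cells, was no guide here, since its share of 11.8% to 17.9% in members was close to the 15.2% to 20.6% in fibroblast nuclei. The rule did not set conventional dendritic cells apart, and how many members are such cells was not tested.

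Other cells were checked by their markers too. The defining T cell genes Cd3e, Cd3d and Cd3g, the NK gene Ncr1 and the neutrophil gene S100a8 had 0 UMIs in members of all 4 libraries. The whole list of 18 T cell genes summed to 73.8 CPM in members of the corrected library, 4.62 in Rbm20_homo, 14.4 in Rbm20_het and 129 in WT. In the same order resident nuclei held 85.1, 47.6, 47.8 and 26.3 CPM of it, and fibroblast nuclei between 30.8 and 50.9 CPM. In WT, members thus stood above both classes, on 15 UMIs. In the corrected library they stood above fibroblast nuclei alone, on 26 UMIs, and in Rbm20_homo and Rbm20_het below both. The list of 14 NK and innate lymphoid genes summed to 761, 646, 648 and 920 CPM in members, against 5050 to 6652 CPM in fibroblast nuclei, and most of its UMIs in members were of Rora (479), a gene that many cell types of the heart express. At least 1 UMI of the T cell or NK list was found in 205 of the 355 members. Cardiomyocyte transcripts were present in members as they were elsewhere: 8 genes outside the rule summed to 3442, 2359, 3814 and 3577 CPM in members of the 4 libraries in that order, against 3047, 2468, 3326 and 3086 CPM in resident nuclei and 1989 to 2634 CPM in fibroblast nuclei. Their part in the results below was not tested, and cardiomyocyte genes are not read as expressed by these nuclei.

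Among the genes that chose the members, Cd74 was the one most often seen, with a UMI in 72.5% of members of the corrected library, 73.7% in Rbm20_homo, 73.5% in Rbm20_het and 69.5% in WT, against 2.34% to 3.44% of fibroblast nuclei. H2-Eb1 had one in 44.1% to 49.5% of members, H2-Ab1 in 33.5% to 53.7% and H2-Aa in 32.4% to 44.3%. In members Cd74 was at 624 CPM in the corrected library, 914 in Rbm20_homo, 590 in Rbm20_het and 722 in WT, against 147, 96.8, 197 and 146 CPM in resident nuclei and 10.4 to 18.7 CPM in fibroblast nuclei. H2-Aa, the alpha chain of I-A, was at 343, 416, 245 and 344 CPM in members of those libraries, against 68.3, 35.3, 57.0 and 52.5 CPM in resident nuclei. Ccr2 was at 270 CPM in members of the corrected library, 596 in Rbm20_homo, 187 in Rbm20_het and 310 in WT, against 16.5 to 45.2 CPM in resident nuclei and 1.14 to 10.2 CPM in fibroblast nuclei. In CPM the Rbm20_homo library was highest for each of these 5 genes and for Ccr2 by the widest margin, whereas the share of members with an H2-Aa UMI was 44.3% in the corrected library and 43.2% in Rbm20_homo.

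**Figure D1:**
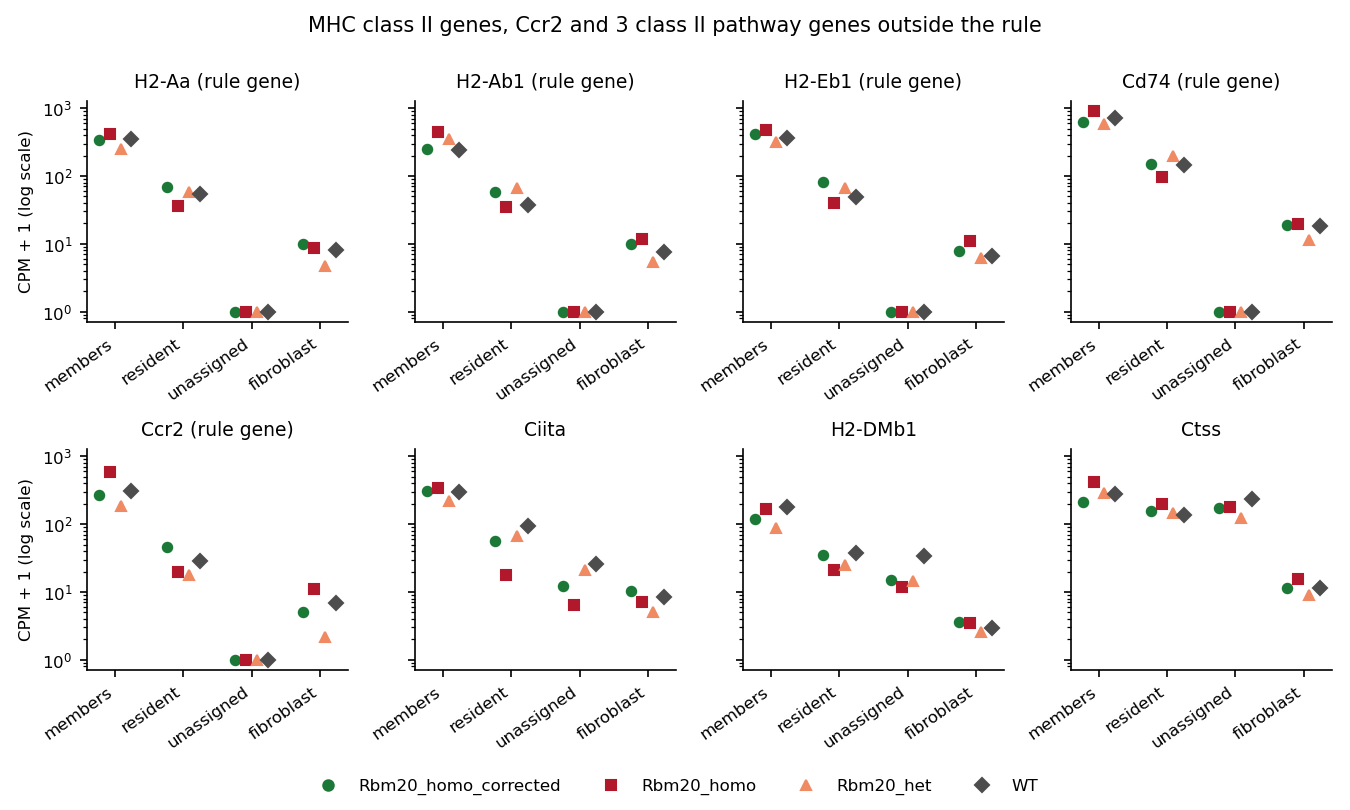
Levels of 8 genes in summed nuclei, as CPM + 1 on a log axis, for members, resident, unassigned and fibroblast nuclei, with 1 point per library. H2-Aa, H2-Ab1, H2-Eb1, Cd74 and Ccr2 chose the members and are a description, whereas Ciita, H2-DMb1 and Ctss were not used and also stand highest in members, with Ciita at 216 to 337 CPM.

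The threshold of 1 UMI is a low one. In 103 of the 355 members (29.0%) a single UMI of these genes decided, 91 held 2 or 3, and 161 (45.4%) held 4 or more, up to 39 in a nucleus of Rbm20_homo. Just outside the rule, 118 gate nuclei had an MHC class II or Ccr2 UMI and 1 UMI of the resident genes, and 24 nuclei had 3 UMIs of the 6 macrophage genes, against 20 members with exactly 4. At least 1 UMI of MHC class II or Ccr2 also appeared in 22.0% to 32.4% of resident nuclei, 4.24% to 7.25% of fibroblast nuclei and 2.61% to 7.26% of cardiomyocyte nuclei. The share in nuclei that should lack these genes is therefore far below the share in macrophages but not 0.

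Members made up 1.12% of the nuclei of the corrected library [0.954 to 1.30], 0.825% of Rbm20_homo, 0.353% of Rbm20_het [0.245 to 0.494] and 0.628% of WT [0.478 to 0.809], where brackets are exact Clopper-Pearson 95% intervals. Of the macrophage gate they made up 21.3% in the corrected library [18.5 to 24.3], 22.3% in Rbm20_homo, 10.1% in Rbm20_het and 15.6% in WT. Ratios of shares have approximate 95% intervals on the log scale. Rbm20_het was lowest on both scales, at 0.563 times WT among all nuclei [0.369 to 0.857]. The ratio of Rbm20_homo to WT was 1.31 among all nuclei [0.951 to 1.82], which includes 1, and 1.42 within the gate [1.06 to 1.91]. That of the corrected library to WT was 1.78 [1.32 to 2.39] and 1.36 [1.04 to 1.78]. The corrected library stood at 1.35 times Rbm20_homo among all nuclei [1.05 to 1.74] but at 0.955 times within the gate [0.765 to 1.19]. The second interval includes 1, so whether the 2 libraries differed depended on the denominator. It depended on the thresholds too. Among all nuclei the ratio was 1.22 [0.933 to 1.60] with at least 6 UMIs of the macrophage genes. With at least 2 UMIs of MHC class II or Ccr2 it was 1.22 [0.910 to 1.63]. Intervals in this text cover counting error only, PCR and pooling aside, and with 1 library per genotype a difference between genotypes is a difference between libraries that no replicate checks. A share of nuclei cannot tell a change in these cells from a change in the others.

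Ccr2 split the members. Nuclei with a Ccr2 UMI were 44 of 167 in the corrected library (26.3% [19.8 to 33.7]), 50 of 95 in Rbm20_homo (52.6% [42.1 to 63.0]), 7 of 34 in Rbm20_het (20.6% [8.70 to 37.9]) and 14 of 59 in WT (23.7% [13.6 to 36.6]). Rbm20_homo stood above the other libraries, whose intervals overlap each other. The share with a Ccr2 UMI was 0.340% to 1.72% in fibroblast nuclei and was also highest in Rbm20_homo there. Over all libraries 95 members held both Ccr2 and MHC class II UMIs, 240 held MHC class II alone and 20 held Ccr2 alone. Median depth was 1854 UMIs per member in the corrected library, 2059 in Rbm20_homo, 1978.5 in Rbm20_het and 1563 in WT, so at 1 UMI these shares also carry depth.

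**Figure D2:**
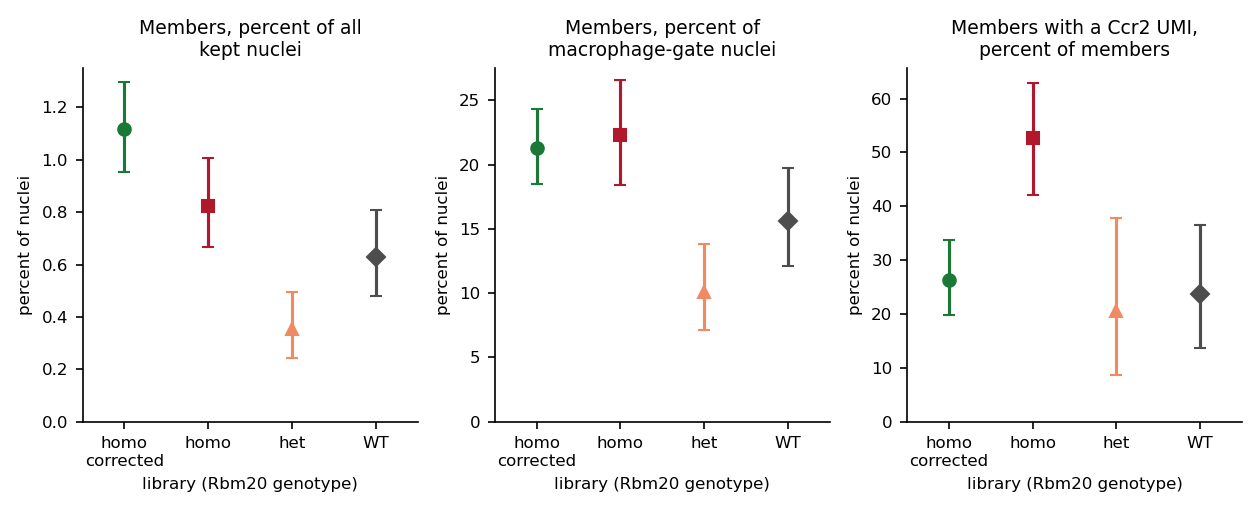
Members as percent of all nuclei kept (left) and of the macrophage gate (middle), and the percent of members with a Ccr2 UMI (right), 1 point per library with its exact 95% interval of counting error. Rbm20_het is lowest in the first and second panels, at 0.353% and 10.1%, and Rbm20_homo stands above the others in the third at 52.6%.

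Genes outside the rule were compared between members and resident nuclei within each library, which gives 4 within-library differences. Of 8536 genes tested with edgeR's quasi-likelihood test, with the library as a block and Benjamini-Hochberg adjustment over all of them, 211 were higher in members (2.47%) and 217 lower (2.54%) at an adjusted p under 0.05. Leaving out the rule genes, 204 were higher and 211 lower, and the median log2 fold change over all genes was 0.00. Some further genes of MHC class II presentation were higher in members, most genes tested that accompany the resident phenotype were lower, and genes common to macrophages mostly did not pass the test. The count was 224 without the corrected library, which holds the most members, 200 with DESeq2 and 248 without the block. It was 274 over members without T cell or NK list UMIs (93 higher and 181 lower), 262 over members without dendritic marker UMIs and 223 over members without Ccr2 UMIs. Dendritic markers here are Flt3, Clec9a, Xcr1, Zbtb46 and Cd209a. Members that lacked them numbered 135, 69, 28 and 47 in the corrected, Rbm20_homo, Rbm20_het and WT libraries. A Zbtb46 UMI alone removed a member, although Zbtb46 was no guide to dendritic cells here, so this setting does not take out dendritic cells alone. In the same way a Rora UMI alone removed a member from the T cell or NK setting, which does not take out T or NK cells alone. These settings filtered the members and left resident nuclei unfiltered, so genes tied to the removed UMIs are lowered in members by construction.

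Of 14 MHC class II presentation genes outside the rule, 11 were tested, 3 rose in members, none fell, and their median log2 fold change was 0.80. Ciita, the transactivator of the whole set, was at 309 CPM in members of the corrected library, 337 in Rbm20_homo, 216 in Rbm20_het and 301 in WT, against 54.6, 16.9, 66.1 and 93.5 CPM in resident nuclei of the same libraries. Every library of members stood above every library of resident nuclei, with a log2 fold change of 2.44 ± 0.23 (SE, edgeR adjusted p = 5.69e-10). A Ciita UMI was found in 32.4% to 38.9% of members, 3.73% to 12.4% of resident nuclei and 1.29% to 1.78% of fibroblast nuclei. H2-DMb1 was at 116, 166, 86.4 and 181 CPM in members of the corrected, Rbm20_homo, Rbm20_het and WT libraries, against 34.7, 19.97, 23.9 and 36.1 CPM in resident nuclei, again without overlap (2.19 ± 0.27, edgeR adjusted p = 1.78e-07). Ctss, the gene of cathepsin S, rose by less, at 210 to 411 CPM in members against 135 to 200 CPM in resident nuclei (0.80 ± 0.16, edgeR adjusted p = 0.000761; 0.224 over members without T cell or NK list UMIs). H2-DMa, the partner chain of H2-DMb1, had a log2 fold change of 0.92 with an edgeR adjusted p of 0.306. Of 12 MHC class I genes, 1 rose, H2-Q7 (1.46 ± 0.36, edgeR adjusted p = 0.00672), a member of a family of near-identical genes whose reads the counting may split, and its call was lost without the corrected or the Rbm20_homo library.

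Of 31 genes of conventional dendritic cells outside the rule, 17 were tested, 9 rose and none fell, with a median log2 fold change of 1.45. Wdfy4, another gene of this list, counted towards the macrophage gate, and its part in these differences was not tested. Clec9a (chr6:129408862-129424763) was at 73.8 CPM in members of the corrected library, 139 in Rbm20_homo, 28.8 in Rbm20_het and 68.8 in WT, against 9.45, 4.61, 20.2 and 6.56 CPM in resident nuclei (log2 fold change 3.03 ± 0.42, edgeR adjusted p = 1.67e-06). Flt3 was at 48.2, 111, 43.2 and 17.2 CPM in members of those libraries, against 3.67 to 7.68 CPM in resident nuclei (3.12 ± 0.49, edgeR adjusted p = 1.68e-05). Both rest on few UMIs, 46 for Flt3 over all members. Cadm1, an adhesion molecule, was at 627, 365, 489 and 499 CPM in members against 186, 111, 237 and 212 CPM in resident nuclei of the same libraries, without overlap (1.45 ± 0.15, edgeR adjusted p = 2.58e-09). Irf8, a transcription factor that conventional dendritic cells need, was at 245 to 319 CPM in members against 106 to 194 CPM (0.99 ± 0.17, edgeR adjusted p = 8.46e-05), and its partner Batf3 rose by 1.26 ± 0.30 (edgeR adjusted p = 0.00527). Naaa, Itgax, Bcl11a and Id2 rose too, and Itgax, Bcl11a and Id2 were higher in 3 of 4 libraries. Zbtb46 did not pass (0.21, edgeR adjusted p = 0.789). Over members without dendritic marker UMIs the calls of Irf8 (edgeR adjusted p = 0.151), Batf3 (0.0576) and Naaa (0.637) were lost, and over members without Ccr2 UMIs those of Clec9a (0.124), Itgax, Naaa, Irf8 and Batf3. Batf3 also missed the threshold without the corrected or the Rbm20_homo library, and Bcl11a and Id2 missed it under DESeq2.

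Monocyte genes were thin: of 30 outside the rule, 13 reached the test, 4 rose (Napsa, Itgal, Fn1 and Pou2f2) and none fell, and Itgal lost its call without WT, Fn1 without the corrected or the Rbm20_het library and Pou2f2 without the corrected or the WT library. Napsa had 17 of its 26 UMIs in members of Rbm20_homo and 0 in Rbm20_het and WT, against 6 UMIs in resident nuclei, and 10 of those 17 came from 1 nucleus. Cx3cr1, the fractalkine receptor of monocytes and macrophages, was at 207 CPM in members of the corrected library, 305 in Rbm20_homo, 245 in Rbm20_het and 189 in WT, against 133, 129, 44.1 and 68.9 CPM in resident nuclei (1.16 ± 0.20, edgeR adjusted p = 8.17e-05). It is 1 of 3 core macrophage genes of 22 that rose, with Ptprc, the leukocyte phosphatase CD45 (0.72 ± 0.12, edgeR adjusted p = 6.91e-05), and Arhgap15. Mertk and Ctsb fell. Arhgap15 lost its call without the corrected, the Rbm20_homo or the WT library and Ctsb without the corrected or the WT library. Mertk, the receptor for dying cells, was at 326, 526, 374 and 439 CPM in members against 578, 777, 671 and 745 CPM in resident nuclei of the corrected, Rbm20_homo, Rbm20_het and WT libraries (-0.77 ± 0.13, edgeR adjusted p = 4.1e-05). Adgre1 did not pass, at 624, 637, 504 and 800 CPM in members against 714, 645, 582 and 691 CPM in resident nuclei (-0.09 ± 0.12, edgeR adjusted p = 0.839), nor did the complement genes C1qa, C1qb and C1qc, whose log2 fold changes were -0.11, -0.01 and -0.13. Over the 69, 48, 11 and 22 members of the 4 libraries without T cell or NK list UMIs, the calls of Ptprc (edgeR adjusted p = 0.225) and Mertk (0.0541) were lost.

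Genes that accompany the resident phenotype were lower in members. Of 21 outside the rule, 17 were tested, none rose and 13 fell, with a median log2 fold change of -0.86, although the resident class was itself picked by 4 genes of this list. Ltc4s, leukotriene C4 synthase (chr11:50236461-50238616), was at 8.51 CPM in members of the corrected library, 18.5 in Rbm20_homo, 28.8 in Rbm20_het and 8.60 in WT, against 119, 120, 151 and 177 CPM in resident nuclei (-3.30 ± 0.34, edgeR adjusted p = 3.41e-09). The groups were far apart in every library. Colec12, a scavenger collectin, was at 227, 106, 230 and 86.0 CPM in members against 668, 751, 790 and 545 CPM in resident nuclei (-2.11 ± 0.17, edgeR adjusted p = 7.16e-12). Vsig4, a complement receptor, fell by 2.65 ± 0.40 on the log2 scale (edgeR adjusted p = 1.04e-05), Cbr2, a carbonyl reductase, by 1.90 ± 0.22 (edgeR adjusted p = 4.51e-08) and Stab1, another scavenger receptor, by 1.03 ± 0.12 (edgeR adjusted p = 5.38e-08). Igf1, Selenop, Gas6, Maf, Dab2, Slc9a9 and Rbpj fell by less, between 0.55 and 1.19, and Fcna had 1 UMI in members against 51 in resident nuclei. Igf1 and Selenop lost their calls under DESeq2 and over members without dendritic marker UMIs, and with Gas6 and Rbpj over members without T cell or NK list UMIs. Fcna lost its call without WT. Resident nuclei were the deeper class, with medians of 2027 to 2346 UMIs.

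The genes highest in members by the naming rule included signalling genes of immune cells. Ap1s3, a subunit of an adaptor complex of vesicle transport (chr1:79606876-79671972), was at 53.9, 92.3, 43.2 and 17.2 CPM in members of the corrected, Rbm20_homo, Rbm20_het and WT libraries, against 0 to 9.19 CPM in resident nuclei (4.30 ± 0.62, edgeR adjusted p = 4.23e-06). Dpp4, the peptidase CD26, was at 85.1, 148, 101 and 43.0 CPM in members, against 7.68 to 16.5 CPM in resident nuclei (3.21 ± 0.37, edgeR adjusted p = 3.84e-08) and 32.8 to 59.5 CPM in fibroblast nuclei. Gpr141, an orphan receptor, was at 48.2, 222, 14.4 and 43.0 CPM in members against 4.92 to 12.9 CPM (3.30 ± 0.44, edgeR adjusted p = 9.28e-07). Cd244a, Slamf7 and Sirpb1b encode immune receptors, Fgr a Src family kinase and Grap2 an adaptor, and Clec9a, Flt3, Dgkg, Htr7 and Ptchd1 were named too. Dpp4, Clec9a, Fgr and Grap2 lost their calls over members without Ccr2 UMIs (edgeR adjusted p 0.228, 0.124, 0.159 and 0.0814), and Cd244a and Slamf7 over members without dendritic marker UMIs. Of all named genes, higher or lower, 9 kept the call in the first setting, 7 lost it and the rest were not tested. In the second setting 13 kept it, 5 lost it and the rest were not tested. Members of the second setting lack Clec9a and Flt3 by the way they were picked.

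The 10 lowest were Hsf3, Fcna, Ltc4s, Rgs7bp, Tfec, Ninj1, Vsig4, Lhfpl3, Hmox1 and Tlr5. Hsf3, a heat shock factor gene that lies next to Vsig4 on chromosome X (chrX:96306178-96456294 and chrX:96247203-96293438), had 2 UMIs in all members, both in the corrected library, against 151 in resident nuclei, where it was at 31.5, 72.2, 71.7 and 57.4 CPM in the corrected, Rbm20_homo, Rbm20_het and WT libraries (edgeR adjusted p = 1.04e-05). Hmox1, haem oxygenase, had 3 UMIs against 69, and its call was lost without the corrected library and under DESeq2. Lhfpl3 lost its call without the corrected library and Tlr5 without the corrected or the Rbm20_homo library, and Tfec, a transcription factor of the MITF family, had 4 UMIs in members against 137 in resident nuclei (edgeR adjusted p = 8.17e-05). Hsf3 and Vsig4 lie on the same strand.

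**Figure D3:**
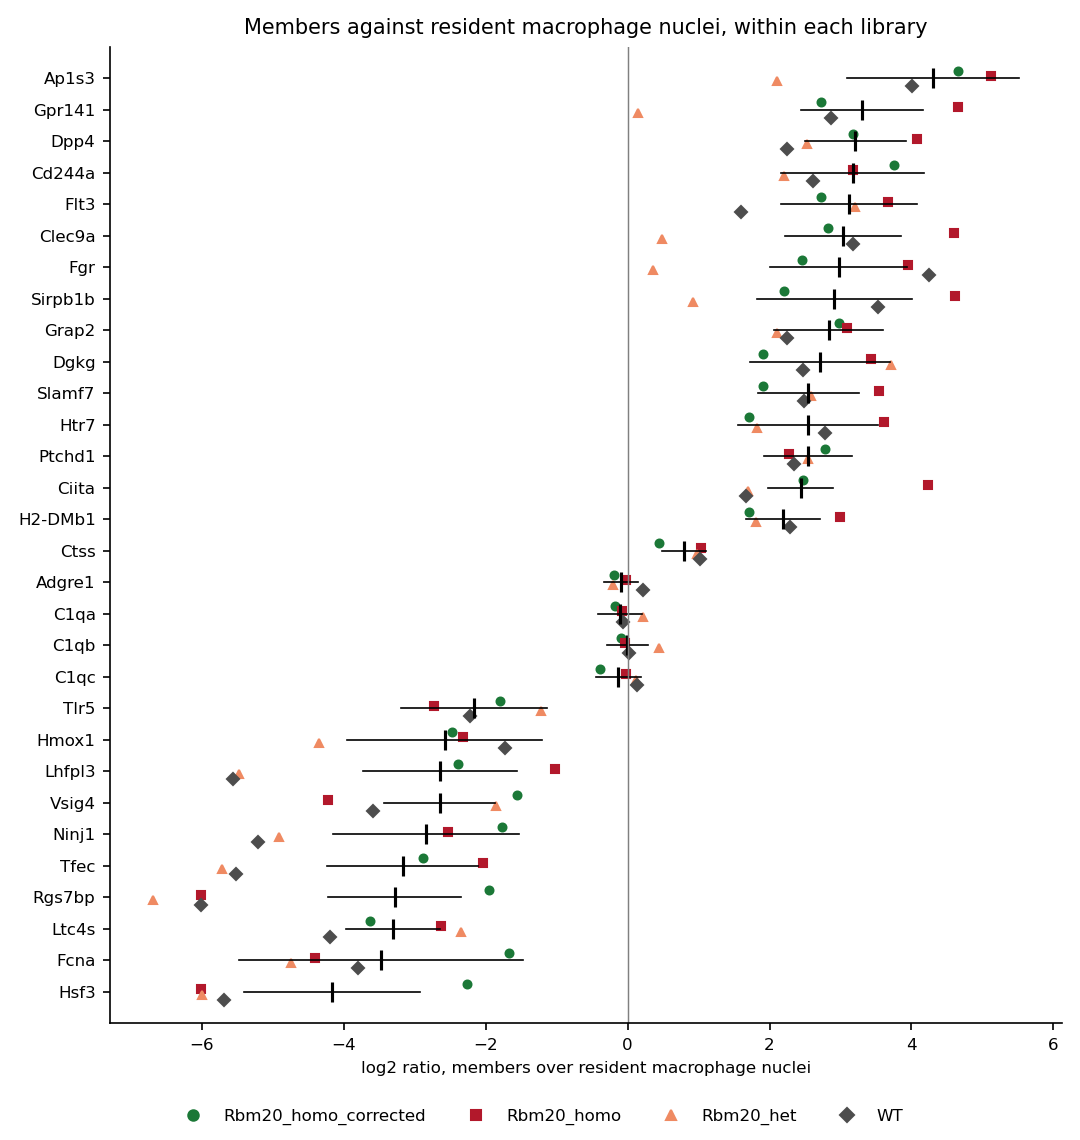
Log2 ratio of members over resident nuclei, 1 point per library (with 0.5 UMI added, scaled to depth), and the fitted log2 fold change as a tick on a line that spans its 95% interval, for genes outside the rule. The genes named as highest, then Ciita, H2-DMb1 and Ctss, lie right of 0, Adgre1 and the C1q genes lie near 0, and the 10 named as lowest lie left of it.

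Receptors, cytokines and adhesion genes moved in part. Of 31 chemokine and cytokine receptor genes 26 were tested and 3 rose: Flt3, Cx3cr1 and Tgfbr1, a receptor of TGF-beta, which was at 786, 563, 648 and 980 CPM in members against 287, 367, 255 and 322 CPM in resident nuclei of the corrected, Rbm20_homo, Rbm20_het and WT libraries (1.21 ± 0.14, edgeR adjusted p = 5.28e-08). Of 40 chemokine, cytokine and growth factor genes 16 were tested, Cxcl16 rose (1.37 ± 0.27, edgeR adjusted p = 0.000459; 0.0579 without the corrected library) and Pdgfc, Il16 and Igf1 fell. Of 24 integrin and adhesion genes 21 were tested and 6 rose (Itgax, Itgb7, Cd226, Itgal, Itga6 and Itgav), none fell. Of 29 genes of pattern recognition 23 were tested, and 2 rose and 2 fell. Among them Nlrp1b, an inflammasome sensor, was at 477, 319, 518 and 499 CPM in members against 146 to 282 CPM in resident nuclei (1.13 ± 0.14, edgeR adjusted p = 3.64e-07). Of 16 complement genes 12 were tested and 3 fell, among them Vsig4 and C5ar1, and Itgax rose. Calls were lost for Cd226 and C5ar1 without the corrected or the Rbm20_homo library, for Itga6 and Itgav without the corrected or the WT library and for Itgal without WT. None of 18 interferon response genes, 13 glucocorticoid-induced genes, 9 cell cycle genes or 8 cardiomyocyte genes tested passed, and no T cell gene had enough UMIs to be tested.

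Members were also set against the unassigned gate nuclei, which share with them the absence of resident marker UMIs. Of 4595 genes tested in the same way, 65 were higher in members (1.41%) and 30 lower (0.653%), or 59 and 29 outside the rule. Ciita had 232 UMIs in members against 11 in unassigned nuclei (4.38 ± 0.33, edgeR adjusted p = 2.05e-09), H2-DMb1 rose by 2.99 ± 0.36 (edgeR adjusted p = 1.07e-05), and Clec9a had 66 UMIs against 1 (edgeR adjusted p = 9.32e-05). Plbd1, a gene of the phospholipase B domain family, was at 287 CPM in members of the corrected library, 226 in Rbm20_homo, 144 in Rbm20_het and 172 in WT, against 47.9, 22.1, 13.5 and 24.5 CPM in unassigned nuclei (2.85 ± 0.28, edgeR adjusted p = 4.18e-07). Of 8 dendritic cell genes tested 5 rose (Clec9a, Naaa, Batf3, Cadm1 and Irf8), of 6 MHC class II genes Ciita and H2-DMb1, and of 13 resident genes 4 fell (Ltc4s, Cbr2, Colec12 and Stab1) and Pid1 rose. Dpp4, Klra2 and Tiam1 completed the 8 named higher genes. Adgre1 did not pass (0.04, edgeR adjusted p = 0.963). The gene with the lowest fold change, Reln, which encodes a secreted matrix protein, was at 2.84, 4.62, 14.4 and 17.2 CPM in members against 11.3, 287, 311 and 114 CPM in unassigned nuclei (-4.14 ± 0.48, edgeR adjusted p = 5.83e-06). Galnt18, Ripor2, Plekhg5 and Rapgef5 were lower as well. Unassigned nuclei carried T cell list genes at 425, 193, 1283 and 8.16 CPM in the corrected, Rbm20_homo, Rbm20_het and WT libraries, and Skap1, a T cell adaptor, was lower in members (edgeR adjusted p = 0.00517). The part of T cells, or of any other cell type that passed the gate among unassigned nuclei, in these calls was not tested. Genes lower in members, Reln among them, are therefore not read as differences between macrophages. The count of 95 calls was 29 under DESeq2, 35 without the block, 169 without a filter on low counts, 162 over members without T cell or NK list UMIs (62 higher and 100 lower), and 59, 42 and 47 without the corrected, the Rbm20_homo and the WT library. The T cell or NK setting filtered members alone, and the unassigned nuclei kept their UMIs of these lists. Calls were lost for Irf8 and Stab1 without the corrected library, for Colec12 and Ltc4s without it or WT, for Cbr2 without it or Rbm20_homo, for Batf3 without any of these 3 libraries, for Ripor2 without the corrected one, for Galnt18 without Rbm20_homo or WT, for Rapgef5 without any library but the corrected one, and for Pid1 without any library but the corrected one.

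Members with a Ccr2 UMI were then compared with members without one, which shows how the set varies within itself. Of 2910 genes tested, 17 were higher with Ccr2 (0.584%, 16 outside the rule) and 25 lower (0.859%). Alcam, an adhesion molecule of leukocytes, was at 1671 CPM with Ccr2 in the corrected library, 824 in Rbm20_homo, 1170 in Rbm20_het and 1030 in WT, against 336, 700, 341 and 418 CPM without (1.37 ± 0.26, edgeR adjusted p = 0.00127). The difference was smallest in Rbm20_homo. Dpp4 was at 212, 178, 356 and 166 CPM with Ccr2 against 28.7, 108, 0 and 0 CPM without, in the same order of libraries (2.40 ± 0.50, edgeR adjusted p = 0.00296). Itga4, the integrin chain with which monocytes enter tissue, was at 369, 445, 458 and 798 CPM with Ccr2 against 246, 237, 120 and 232 CPM without (1.07, edgeR adjusted p = 0.0205). Gpr141, Chn2, Atp8b4 and Plbd1 were higher too.

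Lower in members with Ccr2 were Rbpj, the nuclear effector of Notch signalling, at 2733, 1624, 2187 and 1794 CPM against 4572, 4103, 3594 and 4270 CPM without Ccr2 in the corrected, Rbm20_homo, Rbm20_het and WT libraries (-1.04 ± 0.17, edgeR adjusted p = 9.66e-05), and Igf1, a growth factor, at 111, 40.4, 102 and 133 CPM against 266, 129, 442 and 220 CPM (-1.39 ± 0.37, edgeR adjusted p = 0.0316). Rbpj did not overlap between the groups. Immp2l, Ppp1r9a, Fer, Adam22 and Chd7 were lower as well, and all of them had between 64.0 and 391 CPM in the pooled nuclei outside the gate. Their level in other cells and the higher depth of nuclei with Ccr2 (medians of 1788 to 2727 UMIs against 1551 to 1938) move with these calls, and their part was not tested. None of 6 MHC class II genes tested passed, with Ciita nearest (0.91, edgeR adjusted p = 0.0655), nor did any of 8 dendritic cell genes (Clec9a 1.91, edgeR adjusted p = 0.0843). Adgre1 had a log2 fold change of -0.46 (edgeR adjusted p = 0.605). The 42 calls came to 3 under DESeq2, 8 without the block, 9 over members without T cell or NK list UMIs, 5 over members without dendritic marker UMIs and 15 without either the corrected or the Rbm20_homo library. Of 17 called genes in the lists or the naming rule, 14 lost the call when some library was left out, Alcam, Dpp4 and Igf1 without the corrected one and Itga4 without any of the others. Igf1 was also lost without Rbm20_homo or Rbm20_het. Rbpj, Gpr141 and Immp2l were not among the genes lost, but a gene too low to be tested in a setting was not counted as lost. Without the corrected library 10 named genes lost the call and 1 kept it, so Gpr141 and Immp2l were not both tested there.

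**Figure D4:**
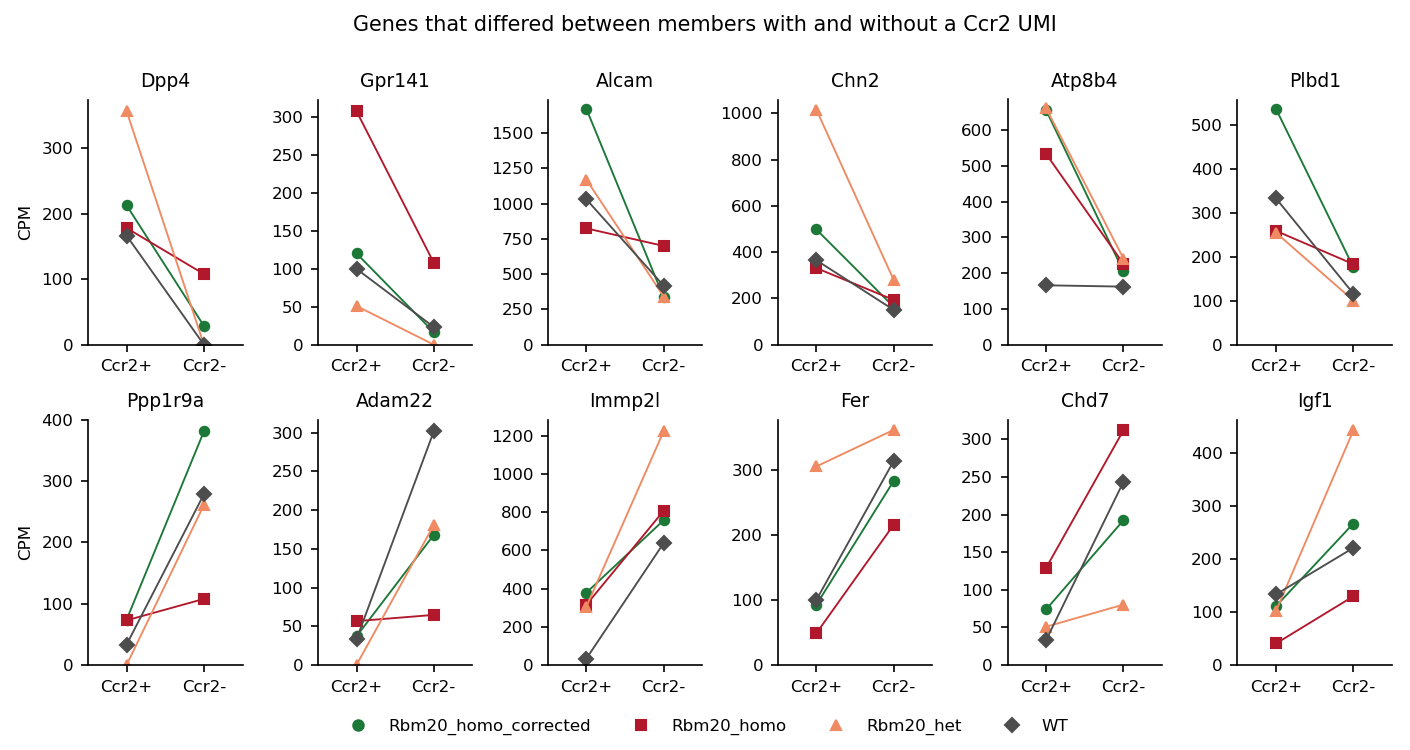
Level (CPM) of the 12 named genes in members with a Ccr2 UMI (left of each pair) and without (right), with a line for each library. Alcam and Dpp4 are higher with Ccr2 in all 4 libraries, and Immp2l and Ppp1r9a lower.

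Between genotypes, members could be described but not tested. Their summed UMIs were 352369 in the corrected library, 216589 in Rbm20_homo, 69472 in Rbm20_het and 116283 in WT, so that 1 UMI is worth 2.84, 4.62, 14.4 and 8.60 CPM. Genes with at least 20 UMIs in both libraries together were read, with exact conditional binomial 95% intervals. The 4 comparisons share libraries and are not independent of each other. Fewer cells of a type and less RNA per nucleus cannot be told apart in such sums, and which members a library holds, such as the share with Ccr2, moves with them.

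In Rbm20_homo against WT, 726 of 3821 genes were past 1.5-fold higher (19.0%) and 671 lower (17.6%), which is the background for the lists. All 5 glucocorticoid-induced genes measured were higher, with a median log2 ratio of 1.76 against 0.01 over all genes. Fkbp5, a co-chaperone of the glucocorticoid receptor (chr17:28399094-28517527), was at 956 CPM in Rbm20_homo members and 215 CPM in WT members, a ratio of 4.45 [2.93 to 7.03], and at 1243 against 218 CPM in resident nuclei. Of 9 dendritic cell genes measured 5 were higher (Flt3, Traf1, Bcl11a, Naaa and Clec9a) and none lower. The interval of Clec9a included 1 (2.01 [0.902 to 5.08]), and Flt3 rested on 2 UMIs in WT (6.44 [1.60 to 56.2]). Of 13 interferon response genes 7 were higher and 1 lower, among the higher ones Iigp1, an interferon-induced GTPase, at 139 CPM in Rbm20_homo against 34.4 CPM in WT (4.03 [1.42 to 15.7]). Of 13 lipid handling genes 6 were higher and 2 lower, and Apoe, the lipid carrier, was at 1436 against 688 CPM (2.09 [1.63 to 2.70]). Of 11 resident genes 4 were lower, Cbr2, Igf1, Selenop and Gas6, and none higher, with Igf1 at 78.5 CPM in Rbm20_homo against 198 CPM in WT (0.397 [0.199 to 0.776]). Markers of other cells moved in the same pair: 3 of 4 fibroblast genes were higher, and 2 of 2 endothelial genes, 3 of 4 pericyte genes, 4 of 4 B cell genes and 3 of 8 cardiomyocyte genes were lower in Rbm20_homo, with 1 cardiomyocyte gene higher. Their part in these values was not tested. None of 6 MHC class II genes outside the rule was past 1.5-fold, and their median log2 ratio was 0.02.

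Ccl12, a ligand of CCR2 in the mouse, had 30 UMIs in Rbm20_homo members (139 CPM) and 0 in WT members. With the 0 set to a floor of 3 UMIs it was 5.37-fold higher, a ratio without an interval, whereas resident nuclei held 75.3 against 50.9 CPM. Rbm20_het members held 11 UMIs of it (158 CPM), 6 of them in 1 nucleus, so WT was the library that stood apart. Bcl11a and Btla were 3.94-fold higher on the same floor. The gene with the largest ratio was Nppa, the natriuretic peptide of stressed heart muscle, at 993 CPM in Rbm20_homo members against 17.2 CPM in WT members, but it stood at 645 against 6.56 CPM in resident nuclei and 818 against 8.30 CPM in all other nuclei, so its difference was not limited to members. Lower in Rbm20_homo were Plxdc2, a membrane protein, at 734 against 1969 CPM (0.373 [0.303 to 0.458]) and Tmcc3 at 1025 against 2494 CPM (0.411 [0.344 to 0.491]). Plxdc2 was lower in resident nuclei as well, at 272 against 866 CPM. Chrm3, Hs3st3a1 and Nrp2 were named too, but the 22 Chrm3 UMIs in WT came from 3 nuclei and 12 of the 20 Nrp2 UMIs from 1.

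In Rbm20_het against WT, 340 of 2253 genes were higher (15.1%) and 370 lower (16.4%), with 34 members behind the values. Atp7a, the copper transporter, was at 302 CPM in Rbm20_het members against 51.6 CPM in WT members (5.86 [2.29 to 17.7]), and Rftn1, a lipid raft protein, at 705 against 267 CPM (2.65 [1.65 to 4.29]). Slc43a2, Stat5b and Lifr were the other named genes higher in Rbm20_het. Lpar6, a receptor of lysophosphatidic acid, was at 28.8 CPM in Rbm20_het against 258 CPM in WT (0.112 [0.0129 to 0.440]), and Fam107b, Tax1bp1, Cnot6l and Chrm3 were lower too. Of 3 pericyte genes measured 2 were lower in Rbm20_het, and their part was not tested. Of 17 core macrophage genes 4 were lower (Lyz2, Spi1, Fcgr3 and Adgre1), of 11 resident genes 3 were higher (Colec12, Dab2 and Igf1) and of 6 MHC class II genes 1 was lower, H2-DMb1.

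In the corrected library against Rbm20_homo, 819 of 5545 genes were higher (14.8%) and 910 lower (16.4%). Of 20 core macrophage genes 8 were lower and 1 higher, with a median log2 ratio of -0.38, among them Lyz2, lysozyme, at 190 CPM in corrected members against 429 CPM in Rbm20_homo members (0.443 [0.319 to 0.613]) and C1qa at 159 against 319 CPM (0.499 [0.344 to 0.720]). Of 13 resident genes 5 were higher (Igf1, Colec12, Pf4, Gas6 and Dab2) and none lower, with a median log2 ratio of 0.56. Igf1 was at 219 CPM in corrected members against 78.5 CPM in Rbm20_homo members (2.78 [1.63 to 5.02]). Of 16 interferon response genes 6 were lower and none higher, and of 16 lipid handling genes 7 were lower and 2 higher, with Apoe at 607 against 1436 CPM (0.423 [0.354 to 0.505]). Of 7 glucocorticoid-induced genes 2 were lower, Fkbp5 at 281 against 956 CPM (0.294 [0.229 to 0.375]) and Tsc22d3 at 96.5 against 249 CPM (0.387 [0.244 to 0.605]), and none higher. Gpr141, which is not in that list, was lower as well, at 48.2 against 222 CPM (0.218 [0.117 to 0.385]). Ccr2, a rule gene given as a description, was at 0.453 times its level in Rbm20_homo. Markers of other cells moved in the same pair of libraries: 4 of 4 pericyte genes and 4 of 8 cardiomyocyte genes were higher and 4 of 5 fibroblast genes lower in the corrected library, with the 8 fibroblast genes outside the rule summing to 380 CPM in corrected members and 928 CPM in Rbm20_homo members. Their part in these values was not tested. Bank1, an adaptor of B cell signalling that is also seen in macrophage nuclei here, was at 539 against 152 CPM (3.54 [2.44 to 5.29]) and at 802 against 290 CPM in resident nuclei. Zfp804b and Fat3 had 0 UMIs in Rbm20_homo and were 8.20-fold and 5.74-fold higher with the 0 set to a floor of 3 UMIs. Spaca6, Nppa, Col1a1 and Grm7 were named too, with 13 of the 24 Grm7 UMIs of Rbm20_homo in 1 nucleus.

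In the corrected library against WT, 759 of 4763 genes were higher (15.9%) and 727 lower (15.3%). Of 19 core macrophage genes 4 were lower (Fcgr3, C1qc, Lyz2 and Fcer1g), of 7 MHC class II genes 1 was lower, H2-DMb1, and of 15 integrin and adhesion genes 6 were lower and none higher, with Pecam1, which is also an endothelial marker, among them. Of the endothelial genes 3 of 3 were lower, and of the pericyte genes 2 of 4 were higher, and their part was not tested. Of 6 glucocorticoid-induced genes 3 were higher (Zbtb16, Errfi1 and Klf9) and 1 lower. Apoe, at 607 CPM in the corrected library against 688 CPM in WT (0.883 [0.680 to 1.16]), and Igf1 (1.10 [0.686 to 1.84]) had intervals that include 1. Slc11a1, a metal transporter of the phagosome, was at 90.8 CPM in corrected members against 284 CPM in WT members (0.320 [0.191 to 0.537]), and Lpar6 at 51.1 against 258 CPM (0.198 [0.104 to 0.367]), with 69.3 against 153 CPM in resident nuclei. Ddhd1 and Cacna1a were higher at 122 CPM each, against 8.60 and 17.2 CPM in WT. Those WT values are 1 and 2 UMIs, each from 1 nucleus and below the floor of 3 UMIs, so the size of these differences is uncertain. Ccl12, at 59.6 CPM against 0, was 2.31-fold higher with the 0 set to a floor of 3 UMIs, and Btla and Gdap2 were the other named higher genes. Rnf145, Chrm3 and Negr1 were lower, with 17 of the 44 Negr1 UMIs of WT in 1 nucleus.

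**Figure D5:**
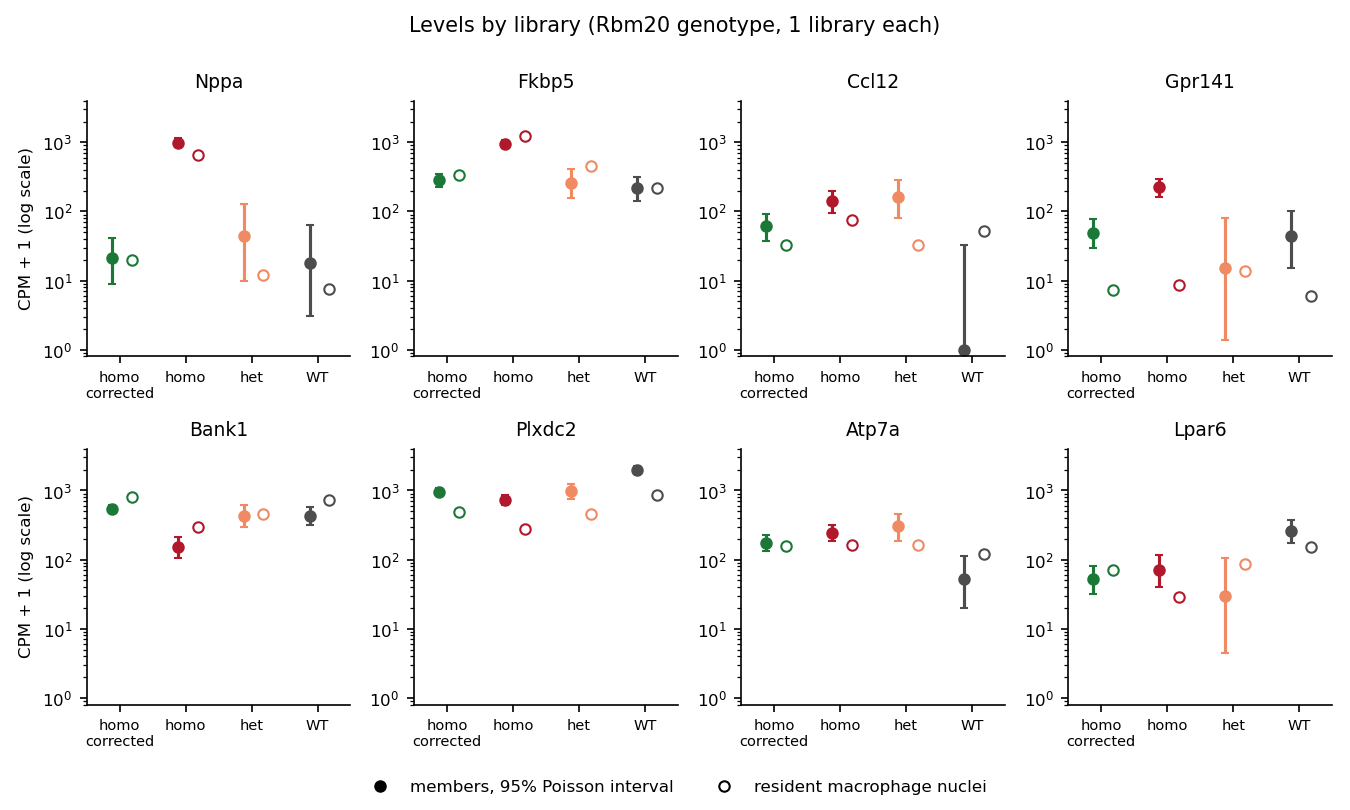
Levels of 8 genes by library as CPM + 1 on a log axis, in members (filled, with exact 95% Poisson intervals of counting error) and resident nuclei (open). Fkbp5 and Nppa are highest in Rbm20_homo in both classes, at 956 and 993 CPM in members, and Lpar6 is highest in WT in both.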

How the data were processed

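Nuclei were profiled with the 10x Genomics 3′ v3 assay. Each deposited matrix gives, for every barcode, the UMI count of each gene as a whole number that was not normalized. Cell Ranger 6.1.1, Seurat 4 and the build mm10 (GRCm38) are named in the submitters' processing notes, whereas the file headers name Cell Ranger 4.0.0. Whether intronic reads were counted, and how barcodes were filtered, is not given in the sources used here. The library protocol in the labels also mentions CD45+ immune cells, although it speaks of total cardiac nuclei elsewhere. Totals were 51422458 UMIs in 15153 barcodes of the corrected library, 52370368 in 11611 of Rbm20_homo, 42375104 in 9734 of Rbm20_het and 37180791 in 9494 of WT, of which 14957, 11512, 9620 and 9394 passed the filters on genes and mitochondrial UMIs. Library pairs shared 26 to 56 barcodes, none of them among members. Doublets were not removed; removing the highest Scrublet scores (scanpy 1.11.5) at 0.8% per 1000 barcodes was an alternative and marked 6 members.

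UMIs were summed per library and class, without mitochondrial genes. Classes were compared within libraries with edgeR 4.0.16 (glmQLFit and glmQLFTest, TMM factors, filterByExpr, library as block) in R 4.3.3, called at an adjusted p of 0.05 (Benjamini-Hochberg). On simulated counts with known changes the fit recovered 94.0%, 98.0% and 92.9% of 4-fold changes against resident nuclei, against unassigned nuclei and in the Ccr2 split. For 2-fold changes these shares were 39.2%, 44.9% and 30.4%, so a gene that did not pass may still differ. The simulation set the dispersion to 0.05, not estimated from these data, and gave all libraries the same gene proportions. Changes were put only on genes with at least 30 UMIs, and recovery was counted among those that passed the filter. The shares therefore hold for those settings and are not the power of the real comparisons. The 4 differences come from libraries of different genotype, and p-values measure the spread between them. Genotypes were compared as CPM with exact Poisson, Clopper-Pearson or conditional binomial intervals at 95% (scipy 1.17.1), a floor of 3 UMIs for 0, and no test. Ratios of shares had approximate 95% intervals on the log scale.

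The members and gene lists were chosen with earlier results of these data known, so their direction is not independent support. Named genes were those called in the same direction in 4 of 4 libraries with at least 30 UMIs in the higher class, the 14 highest and 10 lowest against resident nuclei, 8 and 6 against unassigned nuclei and 6 and 6 in the Ccr2 split. In genotype comparisons they were the 5 highest and 5 lowest ranked by whichever interval bound lay closer to 1 and holding 20 UMIs or more in the higher library. Up to 4 genes per list were added, and Bcl11a, Id2, Itgax and other genes singled out for a call or a lost call were chosen after their values were seen. Mitochondrial, haemoglobin and ribosomal protein genes and unnamed gene models were left out, and some genes that these rules name are not reported here.

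Alternatives were DESeq2 1.42.0, no filter on low counts, each library left out, no block, other class thresholds, thinning to 1500 UMIs, Scrublet removal and members without T cell or NK list UMIs; members without dendritic marker UMIs or without Ccr2 UMIs were chosen after seeing the data. Each matrix also has 2 features named ABE_C and ABE_N, which the sources used here do not define. Promoters are RefSeq's (GRCm38.p6), and positions come from GENCODE vM21.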

Additional observations from a re-analysis of the deposited data

Results flagged for a closer look

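The added features ABE_C and ABE_N had UMIs in members of the corrected library only: 11 UMIs of ABE_C in 3 nuclei, 9 of them in 1, and 6 of ABE_N in 4 nuclei, against 0 in members of Rbm20_homo, Rbm20_het and WT. In the corrected library 32.0% of cardiomyocyte nuclei held ABE_C and 41.5% ABE_N, against 1.73% and 1.80% of fibroblast nuclei. Both features lie outside the comparisons above.

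Stat5b, a transcription factor of cytokine signalling, was at 403 CPM in Rbm20_het members against 138 CPM in WT members (2.93 [1.53 to 5.80], counting error only), while resident nuclei stood the other way, at 193 against 254 CPM (0.759 [0.586 to 0.978]). The difference between the classes was not tested.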

How the results depend on the processing

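No paired analysis was possible between genotypes because each had 1 library; within libraries the block pairs the classes of the same nuclei pool. The ratio of the corrected library to Rbm20_homo in the share of members was 1.35 of all nuclei and 0.955 of the gate. Among all nuclei its interval included 1 at 6 or more UMIs of the macrophage genes [0.933 to 1.60]. It also did so at 2 or more MHC class II or Ccr2 UMIs [0.910 to 1.63]. The other share ratios kept their direction, but in some settings their intervals included 1. Among these was Rbm20_het over WT at 2 or more MHC class II or Ccr2 UMIs [0.379 to 1.06] and after thinning [0.420 to 1.02]. Calls of members against resident nuclei were 428, and 200 with DESeq2, 248 with no replicate block, 274 over members without T cell or NK list UMIs, 262 without dendritic marker UMIs, 223 without Ccr2 UMIs and 224 to 360 with 1 library left out. Against unassigned nuclei they were 95, and 29 with DESeq2, 169 with no filter, 35 with no replicate block, 162 without T cell or NK list UMIs and 42 to 96 with 1 library left out. In the Ccr2 split they were 42, and 3 with DESeq2, 8 with no replicate block, 9 without T cell or NK list UMIs, 5 without dendritic marker UMIs and 15 to 33 with 1 library left out. Alternatives with fewer nuclei also test fewer genes, and the cause of the other changes was not tested. Of the called genes of the lists and the naming rule, at least 24 of 76, 15 of 28 and 14 of 17 lost the call in these 3 comparisons when some library was left out. A gene too low to be tested in a setting was not counted as lost, so these counts are lower bounds. No named gene changed direction where it was tested. The counts of genes past 1.5-fold between genotypes stayed within 1.5 times under TMM, median-of-ratios and Malat1-free scaling. An alternative restricted to members with few cardiomyocyte UMIs left 2 nuclei and was not run. Depth limits Rbm20_het most: 34 members, where 3 UMIs are 43.2 CPM.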
